A study of Mus musculus with 9 samples.

Results

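The 8 genes described here encode the classical MHC class I molecule and the machinery that loads it with peptide: the heavy chains H2-K1 and H2-D1, the light chain B2m, the peptide transporter subunits Tap1 and Tap2, the loading factor Tapbp, the transactivator Nlrc5 and the peptide-trimming enzyme Erap1. They were taken by gene symbol from the deposited table of 27370 genes, each symbol matched 1 row, and all 8 passed the filter on low counts that left 15103 genes for testing. They were read in polyA RNA of sorted mouse stromal cells that gave 9 libraries, 3 for each of 3 groups. The first group, depleted RPF, holds red pulp fibroblasts of the spleen from 6 mice given diphtheria toxin. The second, steady-state RPF, holds the same cell type from 6 untreated mice, and the third, FRC, holds fibroblastic reticular cells from 78 lymph nodes of 6 untreated mice. The labels count 12 mice in all, so steady-state RPF and FRC share their 6 mice, without saying which libraries do. All mice were 4 months old and carried the alleles Wt1CreERT2, RosatdTomato and CD64DTR, so the controls carry the toxin receptor too. Wt1CreERT2 is an inducible Cre recombinase read out from the Wt1 locus, which switches on the red reporter tdTomato. CD64DTR places the toxin receptor under control of CD64, a receptor of macrophages and monocytes. RPF were sorted as tdTomato+ and FRC as tdTomato- cells after removal of CD45+ cells, with 45000 cells per group and the RNA of 2 mice in each library. There was no toxin-treated group without the receptor and no toxin-treated FRC group, so the toxin itself and the loss of CD64+ cells cannot be told apart, nor can organ and sort gate in the comparisons with FRC.

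MHC class I carries fragments of a cell's own proteins to the surface, where CD8+ T cells and natural killer cells read it. Cytosolic proteins are cut by the proteasome, pumped into the endoplasmic reticulum by the TAP transporter, trimmed there by ERAP1 and placed in the groove of the heavy chain, which tapasin, the product of Tapbp, holds next to TAP. Nearly all nucleated cells make the complex, fibroblasts of lymphoid organs among them, and interferons raise it through IRF and STAT factors and through NLRC5, which acts on class I promoters together with RFX, CREB or ATF and NF-Y proteins.

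Promoter sequences are shown for the heavy chains, the light chain and the transporter subunit Tap1, because the first 3 hold the same 3 motifs, in differing order and strand, and Tap1 does not. They are RefSeq sequences on GRCm38.p6, windows of 200 bases from 190 before to 10 from the RefSeq start, each 5′ to 3′ on the strand of the gene. Capitals mark matches to 3 motifs searched on both strands: GGGNNTTNC, an NF-kB-like element; GAAANNGAA or GAANNGAAA, which resemble the interferon-stimulated response element; and TGACG followed after 18 to 22 bases by ATTGG, cores of the CREB or ATF and the NF-Y elements. The windows are H2-K1 at chr17:34000324-34000523 on the minus strand, H2-D1 at chr17:35262904-35263103, B2m at chr2:122147497-122147696 and Tap1 at chr17:34187366-34187565, the last 3 on the plus strand.
H2-K1: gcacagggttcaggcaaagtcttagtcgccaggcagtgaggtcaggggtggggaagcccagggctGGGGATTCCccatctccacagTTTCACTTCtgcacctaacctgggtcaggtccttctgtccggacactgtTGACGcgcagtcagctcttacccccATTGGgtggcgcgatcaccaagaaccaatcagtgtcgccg
H2-D1: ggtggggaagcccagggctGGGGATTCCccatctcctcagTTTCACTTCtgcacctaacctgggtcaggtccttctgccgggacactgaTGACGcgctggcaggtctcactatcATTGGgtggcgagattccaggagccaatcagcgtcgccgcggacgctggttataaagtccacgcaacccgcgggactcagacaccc
B2m: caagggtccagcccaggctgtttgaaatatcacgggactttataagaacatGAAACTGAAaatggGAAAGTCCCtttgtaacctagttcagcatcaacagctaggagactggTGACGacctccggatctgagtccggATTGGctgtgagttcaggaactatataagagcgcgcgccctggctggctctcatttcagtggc
Tap1: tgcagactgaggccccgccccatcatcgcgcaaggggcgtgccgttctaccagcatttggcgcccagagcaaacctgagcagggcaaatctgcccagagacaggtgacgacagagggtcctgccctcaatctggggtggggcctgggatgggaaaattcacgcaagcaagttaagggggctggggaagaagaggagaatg
The H2-K1, H2-D1 and B2m windows each hold all 3 motifs, with exactly 20 bases between TGACG and ATTGG in each. In H2-K1 and H2-D1 they stand in the same order, NF-kB-like, then the interferon-type element on the minus strand, then the pair. In B2m the interferon-type element comes first and on the plus strand, with the NF-kB-like one after it on the minus strand. Tap1 holds TGACG but no ATTGG at that distance, and neither of the other motifs. Of 32851 RefSeq promoter windows of this length, 10.8% hold the NF-kB-like motif, 9.78% the interferon-type motif and 0.234% the spaced pair, which is 77 windows. Erap1 holds a pair of overlapping interferon-type matches across its start, in the stretch TTCACTTTCACTTTC, and Tapbp holds none of the 3 motifs. Only 6 of the 8 genes were matched to a sequence. These are descriptions of letters in a window: the motif forms and the spacing were chosen with these promoters in view, and a match is not evidence that a factor binds. The RefSeq start of H2-D1 lies 364 bases, that of Erap1 285 bases and that of Tapbp 3579 bases from the gene start in the deposited table, so those windows may not cover the start used in these cells.

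The libraries held between 25414645 counts (RPF steady replicate 3) and 43879806 counts (FRC replicate 3). Levels below are CPM, counts scaled to a common library size, after TMM scaling, which aligns the libraries on the bulk of their genes. The scaling matters here: the 20 most abundant genes took 11.7 to 12.6% of the counts in depleted RPF, 13.8 to 14.9% in steady-state RPF and 22.9 to 24.7% in FRC, and the TMM factors were 1.05 to 1.07, 1.18 to 1.20 and 0.765 to 0.827 in that order of groups. Wt1 averaged 34.3 ± 6.55 CPM in depleted RPF, 62.1 ± 2.57 CPM in steady-state RPF and 1.64 ± 1.18 CPM in FRC, and Pdpn, which encodes gp38, averaged 0.0733 ± 0.0629, 0.0981 ± 0.0874 and 74.1 ± 3.79 CPM in the same order (SD, n = 3 each). Both defining genes thus follow the sort labels. RPF steady replicate 1 held 1 Y-linked count and FRC replicate 1 held 0, against 2285 to 6101 in the other 7 libraries, and results were recomputed without both. A list of 10 markers of red pulp macrophages summed to 2.37 to 11.9 CPM in depleted RPF, 174 to 184 CPM in steady-state RPF and 42.8 to 53.7 CPM in FRC. In FRC the sum was mostly Spic, which averaged 26.9 CPM there and 16.2 CPM in steady-state RPF. Of the defining ones, C1qa and Cd5l were at 0 in every depleted library, and Cd5l in every FRC library too. Sums of several, but not all, other cell types were lower in depleted than in steady-state RPF as well. The 7 B and plasma cell markers summed to 82.5 to 120 CPM in depleted RPF against 182 to 378 CPM in steady-state RPF, mostly Cd74 and Ighm, the 5 pan-leukocyte markers to 9.75 to 14.8 against 36.1 to 93.04 CPM, and the 7 endothelial markers to 23.1 to 31.6 against 55.2 to 166 CPM, mostly Tek. The 7 T and NK cell markers summed to 0.0270 to 0.558 against 2.28 to 4.26 CPM. None of these sums overlapped. Those of 8 neutrophil markers did, at 2.39 to 48.4 against 47.3 to 350.3 CPM. Sums of 8 class II and dendritic cell genes also overlapped, at 57.9 to 99.6 against 77.1 to 135 CPM. The 7 erythroid markers summed to 442 to 713 CPM in depleted RPF, 186 to 791 CPM in steady-state RPF and 0.477 to 99.2 CPM in FRC. A sum of 4 monocyte markers, given below, was higher in depleted RPF. Of defining genes, Emcn and Lyve1 of endothelium and Cd3d and Cd3g of T cells were at 0 in every depleted library. In steady-state RPF Lyve1 was at 0 in every library and Emcn in 1. Cd3d and Cd3g were at 0 in 2 libraries there and reached only 0.158 and 0.234 CPM. The endothelial genes Pecam1, Cdh5 and Kdr overlapped between the RPF groups and were not called (edgeR adjusted p = 0.377, 0.739 and 0.646). Ptprc, which encodes CD45, was at 0 in 2 depleted libraries and reached 11.3 CPM in steady-state RPF. The nucleated cells among these types make class I as well, and their part in the values below was not tested. In bulk RNA, fewer cells of a type and less RNA per cell cannot be told apart.

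Class I transcripts were abundant in all 3 groups. H2-K1, H2-D1 and B2m together made up 0.973, 0.987 and 0.835% of all counts in the depleted RPF libraries, against 1.21, 1.21 and 1.46% in the steady-state RPF libraries. In the FRC libraries they made up 0.777, 0.789 and 0.905% of all counts. All depleted libraries lay below all steady-state RPF libraries, and those of depleted RPF and FRC overlapped. These are shares of the total count, without TMM scaling, and their order between RPF and FRC depends on that. With TMM scaling steady-state RPF and FRC averaged 2559 and 2987 CPM for H2-K1, 4804 and 4892 for H2-D1 and 3534 and 2508 for B2m. Depleted RPF averaged 2072, 3854 and 2891.5 CPM for these genes. Per kilobase of exon, B2m was highest in each group, at 3362 ± 203 CPM per kb in depleted RPF, 4109.7 ± 176 in steady-state RPF and 2916 ± 176 in FRC, followed by H2-D1, H2-K1 and Tapbp, with no overlap between neighbours in that order. Nlrc5 was lowest in each group, at 4.08 ± 0.675, 3.80 ± 0.197 and 3.98 ± 2.13 CPM per kb. The order of the middle genes differed between groups. In depleted RPF it ran Tap1 (43.0), Erap1 (30.0) and Tap2 (25.9 CPM per kb), and each overlapped its neighbour; in steady-state RPF it ran Tap2 (36.4) and Erap1 (35.02), which overlapped, then Tap1 (26.4); in FRC it ran Tap2 (72.5), above Erap1 (33.4) and Tap1 (27.4), which overlapped. These lengths are the union of all annotated exons. With the median transcript length in the deposited table instead, which is 378 bases for Tap2 and 561 for H2-D1, H2-D1 came first in every group.

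**Figure D1:**
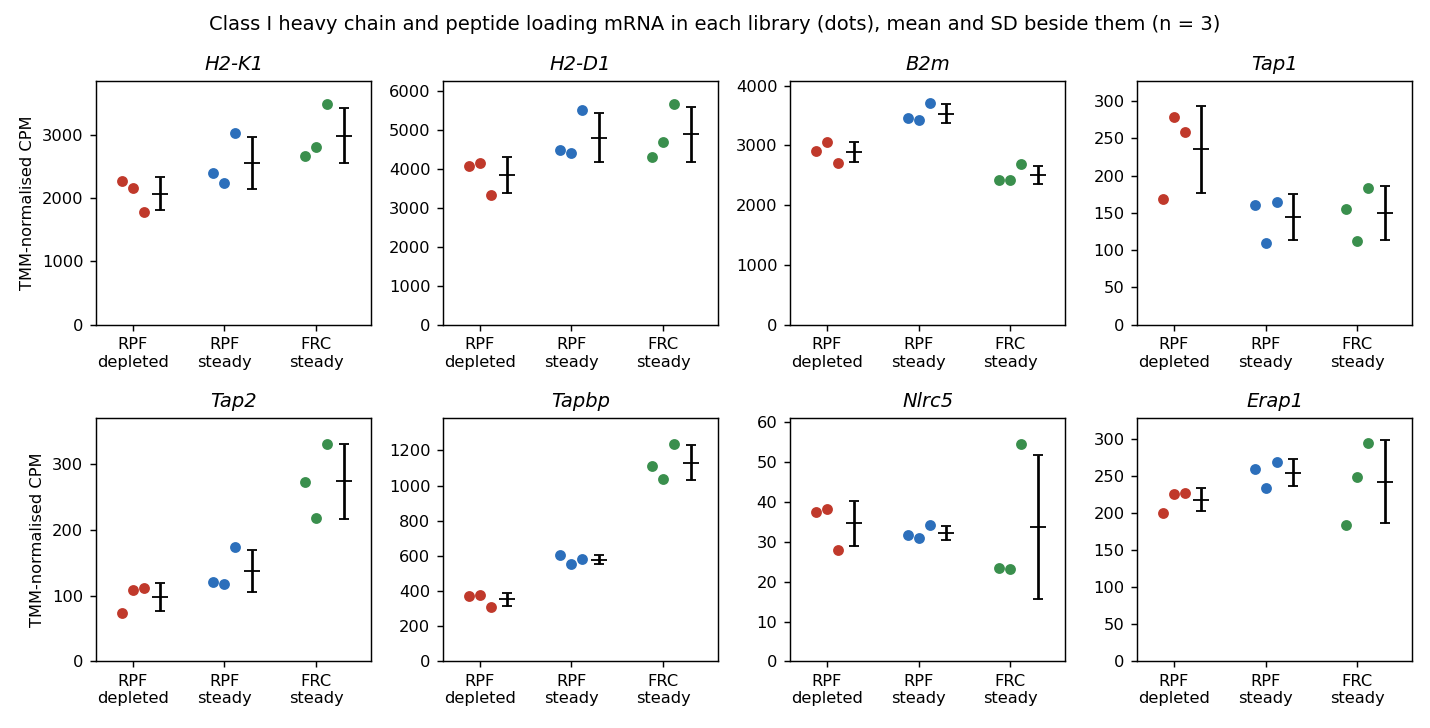
TMM-normalised CPM of the 8 class I genes in each library (dots, 1 panel a gene, y axis from 0), for depleted RPF, steady-state RPF and FRC from left to right, with the mean and SD of 3 libraries beside the dots. Tapbp steps up across the groups with no overlap, from 310.4 to 377 CPM in depleted RPF, 553 to 604 in steady-state RPF and 1039 to 1236 in FRC. Tap1 has its highest mean in depleted RPF, but overlaps FRC there and is called in no comparison.

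The number of class I genes called after macrophage depletion was not set apart from the share over all tested genes. Of the 8 genes, 0 rose and 1 fell in depleted against steady-state RPF, while 11.1% of all tested genes were called higher and 9.96% lower. The median log2 fold change was -0.30 over the 8 and -0.09 over all tested genes. The gene that fell was Tapbp. The comparison with steady-state FRC gave 1 gene higher and 2 lower in steady-state RPF, where 11.5% of all tested genes were higher and 14.4% lower, with medians of -0.06 and -0.02. Depleted RPF against FRC had 0 higher and 3 lower, where 16.9% of all tested genes were higher and 18.8% lower, with medians of -0.25 and -0.06. Each pair of these comparisons shares a group of libraries, so they are not independent of each other. Calls are at an adjusted p under 0.05 in edgeR's quasi-likelihood test, adjusted over all tested genes. When libraries were scaled by their total count alone, which moved the median of all genes by -0.17, 0.58 and 0.41 on the log2 scale in these comparisons, 0 class I genes were higher and 4 lower in the first, 3 higher and 1 lower in the second, and 2 higher and 2 lower in the third. All genes then split as 1297 higher and 1864 lower, 3935 higher and 1342 lower, and 3933 higher and 2125 lower.

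**Figure D2:**
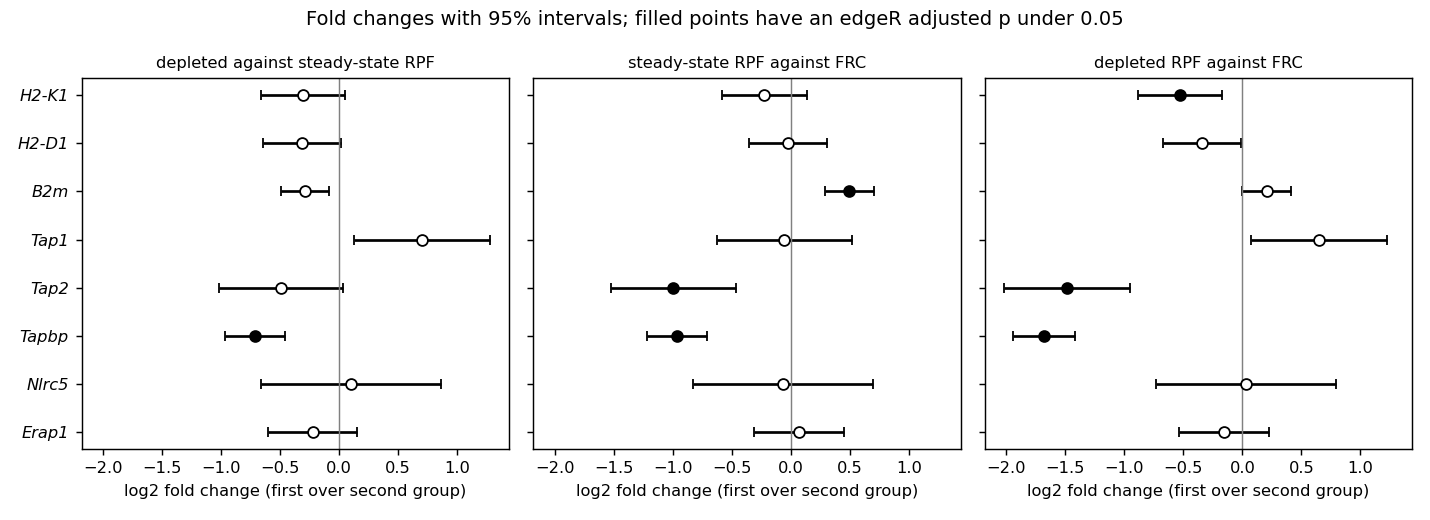
Log2 fold change of each class I gene in 3 comparisons, first-named group over second, with 95% intervals from edgeR's quasi-likelihood fit; filled points have an adjusted p under 0.05. Tapbp is filled and left of 0 in all 3 panels, and Tap1 and Tap2 lie on opposite sides of 0 in both comparisons of depleted RPF.

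The heavy chains had nearly the same profile over the libraries. H2-K1 (ENSMUSG00000061232, chr17:33996017-34000333) presents peptides to CD8+ T cells and had 2274, 2166 and 1775 CPM in depleted RPF, against 2401, 2245 and 3031 CPM in steady-state RPF. Its values in FRC were 2673, 2806 and 3484 CPM. One depleted library lay just above the lowest steady-state RPF library, the other 2 below all of that group, and all 3 lay below FRC. H2-K1 was 1.44-fold lower in depleted RPF than in FRC (log2 fold change -0.53, SE 0.16, edgeR adjusted p = 0.029). That call was lost with upper quartile scaling (adjusted p = 0.0502), with total count scaling (log2 fold change -0.11, adjusted p = 0.565) and without RPF depleted replicate 2 (0.0645), RPF depleted replicate 3 (0.0994) or FRC replicate 3 (0.0978), where it was -0.55, -0.42 and -0.40. Depleted against steady-state RPF gave -0.30 (95% interval -0.66 to 0.05, edgeR adjusted p = 0.22).

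H2-D1 (ENSMUSG00000073411, chr17:35262730-35267499), the other classical heavy chain in this table, had 4078, 4164 and 3322 CPM in depleted RPF, against 4479, 4411 and 5522 CPM in steady-state RPF. The FRC libraries had 4300.2, 4699.5 and 5676 CPM. All depleted libraries were below all of the others, but no comparison passed: the log2 fold change was -0.32 in depleted against steady-state RPF (95% interval -0.65 to 0.01, edgeR adjusted p = 0.166), and -0.34 in depleted RPF against FRC (-0.67 to -0.01, 0.0975). Steady-state RPF and FRC overlapped, with an interval of -0.36 to 0.30. Under total count scaling both heavy chains fell after depletion, H2-K1 by 0.47 (edgeR adjusted p = 0.0468) and H2-D1 by 0.49 (0.0289), and H2-D1 was higher in steady-state RPF than in FRC by 0.56 (0.0104).

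Across the 9 libraries each heavy chain was the gene most like the other among 8747 genes with a mean of at least 10 CPM, with a root mean square difference of 0.10 between their centred log2 profiles. The next for H2-K1 were Hnrnpul1 at 0.13 and Gm49172 at 0.14, and for H2-D1 Aplp2 at 0.11 and Gm49172 at 0.12. Their ratio within a library needs no scaling. H2-D1 over H2-K1 counts was 1.79, 1.92 and 1.87 in depleted RPF, 1.87, 1.96 and 1.82 in steady-state RPF and 1.61, 1.68 and 1.63 in FRC. The RPF groups overlapped, and every RPF library was above every FRC library, in each case with an exact two-sided permutation p of 0.1, the smallest that 3 against 3 allows (0.124 adjusted over 21 such ratio tests). Heavy chain transcripts are similar in sequence: 9.63% of the 50-base words of H2-K1 and 12.8% of those of H2-D1 occur in another gene, most often H2-Q10 and H2-Q1, so the counting of reads may have moved some between them. No label gives the H-2 haplotype of the mice, and reads were counted against mm10, which carries the C57BL/6J alleles.

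The light chain was higher in steady-state RPF than in FRC. B2m (ENSMUSG00000060802, chr2:122147686-122153083), the invariant subunit without which heavy chains do not reach the surface, had 2907, 3058 and 2710.2 CPM in depleted RPF, against 3460.4, 3434 and 3709 CPM in steady-state RPF. In FRC it had 2423, 2417 and 2682 CPM. The 3 groups did not overlap, with steady-state RPF on top. B2m was 1.41-fold higher in steady-state RPF than in FRC (log2 fold change 0.50, SE 0.09, edgeR adjusted p = 0.00374), and this call held in all 16 alternatives, with adjusted p up to 0.0339. Depleted against steady-state RPF gave -0.29 (95% interval -0.50 to -0.08) with an edgeR adjusted p of 0.0515, just over the threshold. It passed with RLE (0.0302), upper quartile (0.017) or total count scaling (0.00414), with a filter of 1 CPM (0.045), and in DESeq2 (0.00235) and limma-voom (0.00975). Depleted RPF against FRC gave 0.21 (edgeR adjusted p = 0.11), and 0.62 under total count scaling (0.000379).

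Relative to the heavy chains, B2m overlapped between the RPF groups and stood higher in both than in FRC. The ratio of B2m counts to the sum of H2-K1 and H2-D1 counts was 0.458, 0.483 and 0.532 in depleted RPF, 0.503, 0.516 and 0.434 in steady-state RPF and 0.348, 0.322 and 0.293 in FRC. It averaged 0.491 ± 0.0377, 0.484 ± 0.0443 and 0.321 ± 0.0274 in that order (SD, n = 3). The RPF groups overlapped (exact two-sided permutation p = 0.9), and both lay wholly above FRC (p = 0.1, the smallest possible, 0.124 adjusted). The genes with profiles most like B2m were Grina, Prkar1a and Csnk1g3, at 0.0986, 0.0994 and 0.110.

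The transporter subunits differed in their profiles. Tap1 and Tap2 form the TAP heterodimer, which pumps peptides into the endoplasmic reticulum, and lie close together in the class II region of chromosome 17, Tap1 (ENSMUSG00000037321) at chr17:34187553-34197225 and Tap2 (ENSMUSG00000024339) at chr17:34203527-34216321. Tap1 had 169, 279 and 258 CPM in depleted RPF, against 161, 109 and 164 CPM in steady-state RPF. FRC libraries gave 155, 112 and 184 CPM. Depleted replicates 2 and 3 stood above all other libraries, and depleted replicate 1 lay among FRC and just above steady-state RPF. The log2 fold change was 0.70 in depleted against steady-state RPF (95% interval 0.13 to 1.28, edgeR adjusted p = 0.0861). It passed in limma-voom (0.72, adjusted p = 0.0487) and without RPF depleted replicate 1 (0.89, 0.0459), and ran to an adjusted p of 0.252 in the other alternatives. Depleted RPF against FRC gave 0.65 (edgeR adjusted p = 0.0772), which passed in DESeq2 (0.0484), without RPF depleted replicate 1 (0.84, 0.0363) and with total count scaling (1.06, 0.00881).

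Tap2 had 73.2, 109 and 112 CPM in depleted RPF, against 121, 118 and 174 CPM in steady-state RPF. In FRC it had 274, 218 and 331 CPM. The groups did not overlap, with depleted RPF lowest and FRC highest. Tap2 was 2.79-fold lower in depleted RPF than in FRC (log2 fold change -1.48, SE 0.24, edgeR adjusted p = 0.00128), a call that held in all 16 alternatives. It was 1.99-fold lower in steady-state RPF than in FRC (-0.99, SE 0.23, edgeR adjusted p = 0.0134). This call was lost with total count scaling (-0.41, adjusted p = 0.198), without the libraries that lack Y-linked reads (-0.91, 0.0998), and without RPF steady replicate 1 (-0.90, 0.0572) or 2 (-0.89, 0.0579). Depleted against steady-state RPF gave -0.49 (95% interval -1.01 to 0.04, edgeR adjusted p = 0.18).

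Set against each other, the TAP subunits gave a ratio that kept the 3 groups apart. The ratio of Tap1 to Tap2 counts was 2.31, 2.56 and 2.30 in depleted RPF, 1.33, 0.927 and 0.944 in steady-state RPF and 0.567, 0.514 and 0.556 in FRC. The group means were 2.39 ± 0.148, 1.07 ± 0.227 and 0.546 ± 0.0281 (SD, n = 3), and no library of one group fell within the range of another. Each of the 3 comparisons had an exact two-sided permutation p of 0.1, the smallest possible, and 0.124 after adjustment. This ratio was chosen after the values were seen. It does not depend on the scaling of libraries. Tap1 is the longer gene in exons, so the ratio compares libraries and is no measure of how many subunits a cell makes. No source used here gives the strand setting of the counting: 533 exonic bases of Tap2 overlap the antisense gene Gm15821, which had at most 0.0574 CPM in any library, and 212 of Tap1 overlap Psmb9 on the other strand.

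**Figure D3:**
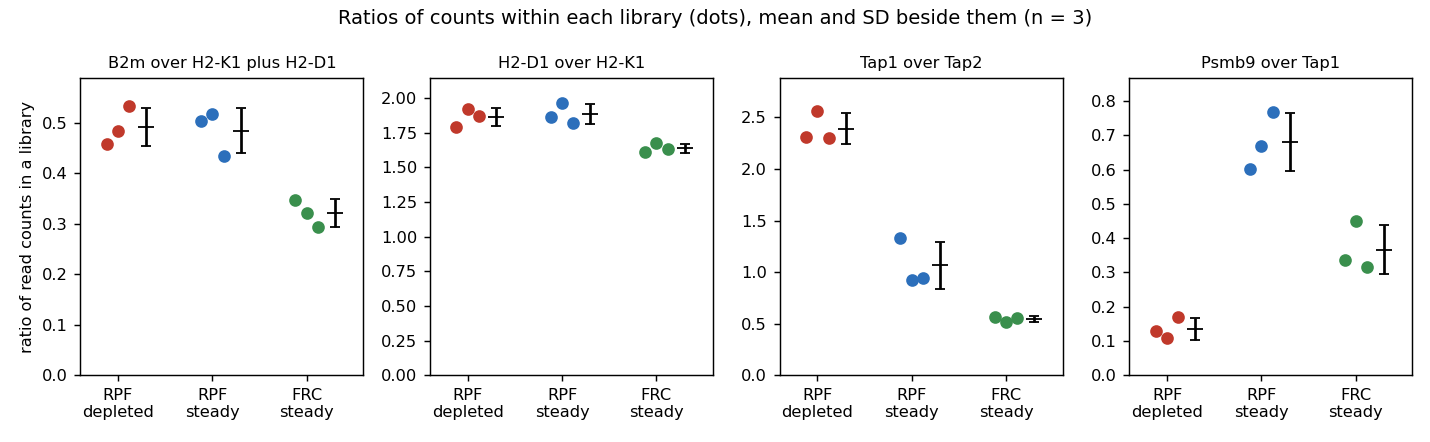
Ratios of read counts within each library (dots, y axes from 0), for depleted RPF, steady-state RPF and FRC from left to right, with the mean and SD of 3 libraries. Tap1 over Tap2 separates the 3 groups at means of 2.39, 1.07 and 0.546, B2m over the heavy chains and H2-D1 over H2-K1 separate both RPF groups from FRC, and Psmb9 over Tap1 is lowest in depleted RPF.

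Psmb9 lies next to Tap1, at chr17:34181988-34187764, and encodes an immunoproteasome subunit. It fell after depletion. Psmb9 had 21.8, 30.1 and 43.6 CPM in depleted RPF, against 96.8, 73.1 and 126 CPM in steady-state RPF. In FRC it had 52.0, 50.2 and 58.0 CPM. The gene was 3.10-fold lower in depleted than in steady-state RPF (log2 fold change -1.63, SE 0.28, edgeR adjusted p = 0.00366). Its ratio to Tap1 averaged 0.135 ± 0.0311 in depleted RPF, 0.680 ± 0.0838 in steady-state RPF and 0.367 ± 0.0719 in FRC, without overlap between any groups (exact two-sided permutation p = 0.1 each, the smallest possible). Psmb8, the immunoproteasome gene between Tap1 and Tap2, averaged 111 ± 19.97 CPM in depleted RPF and 127 ± 20.2 CPM in steady-state RPF, with no call (edgeR adjusted p = 0.494). The macrophage, lymphocyte, leukocyte and endothelial marker sums given above were lower in depleted RPF as well, and their part in the Psmb9 value was not tested.

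Tapbp was the gene called in all 3 comparisons. Its product tapasin bridges TAP and the heavy chain and edits the peptide, and the gene (ENSMUSG00000024308) lies at chr17:33915899-33929288. It had 371, 377 and 310.4 CPM in depleted RPF, against 604, 553 and 579.8 CPM in steady-state RPF. In FRC it had 1110.5, 1039 and 1236 CPM. The groups were stepped with wide gaps: the highest depleted library was below the lowest steady-state one, and the highest of these was below the lowest FRC library. Tapbp fell 1.64-fold in depleted against steady-state RPF (log2 fold change -0.71, SE 0.11, edgeR adjusted p = 0.00218). It was 1.95-fold lower in steady-state RPF than in FRC (-0.96, SE 0.11, edgeR adjusted p = 0.000282) and 3.20-fold lower in depleted RPF than in FRC (-1.68, SE 0.12, edgeR adjusted p = 8.9e-06). All 3 calls held in all 16 alternatives, with adjusted p up to 0.0181, 0.0192 and 0.000265, although total count scaling brought the second to -0.38. The nearest profiles were Cpq, Maged1 and Ergic3, at root mean square differences of 0.0898, 0.108 and 0.110. Tapbp and Tap1 were the pair of class I genes with the least alike profiles, at 0.995, and the ratio of Tapbp to Tap1 counts averaged 1.58 ± 0.533 in depleted RPF, 4.12 ± 0.829 in steady-state RPF and 7.72 ± 1.37 in FRC. An antisense gene, Gm19412, overlaps 904 exonic bases of Tapbp, or 24.9%, and averaged 0.156, 0.123 and 0.210 CPM in the 3 groups in that order.

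No difference was called for the transactivator gene. Nlrc5 (ENSMUSG00000074151, chr8:94434356-94527272) had 37.5, 38.3 and 28.0 CPM in depleted RPF, against 31.7, 31.0 and 34.1 CPM in steady-state RPF. The FRC values were 23.6, 23.2 and 54.7 CPM. The groups overlapped, and FRC held both the lowest values and the highest. The log2 fold changes were 0.10 in depleted against steady-state RPF (95% interval -0.66 to 0.86), -0.07 in steady-state RPF against FRC (-0.83 to 0.69) and 0.03 in depleted RPF against FRC (-0.73 to 0.80), none called by edgeR (adjusted p = 0.883, 0.916 and 0.95). Differences within these intervals are not excluded. FRC replicate 3, which held the 54.7 CPM, was also highest in a sum of 8 class II and dendritic cell genes. That sum was 629 CPM against 326 and 361 CPM in the other FRC libraries, mostly H2-Ab1. Of the dendritic cell genes, Flt3 was at 0 and Itgax at most 0.0304 CPM in FRC. In FRC replicate 3 Ptprc was at 0 and the pan-leukocyte sum was 3.73 CPM, against 18.4 and 27.8 CPM in the other FRC libraries. The part of cells carrying class II in the Nlrc5 value was not tested.

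Erap1 (ENSMUSG00000021583, chr13:74639568-74693201) trims peptides in the endoplasmic reticulum to the length the groove takes. It had 200.4, 227 and 228 CPM in depleted RPF, against 260.2, 235 and 269.8 CPM in steady-state RPF. Values in FRC were 184, 249.6 and 295 CPM. The depleted libraries lay below steady-state RPF, while FRC spread over both. The log2 fold changes were -0.22 in depleted against steady-state RPF (95% interval -0.60 to 0.15), 0.07 in steady-state RPF against FRC (-0.31 to 0.45) and -0.15 in depleted RPF against FRC (-0.53 to 0.22), none called by edgeR (adjusted p = 0.409, 0.814 and 0.514). Total count scaling gave 0.66 for the second, with an edgeR adjusted p of 0.00942. Cast overlaps 834 of the exonic bases of Erap1 on the other strand and averaged 45.8 ± 2.36 CPM in depleted RPF, 51.8 ± 4.78 CPM in steady-state RPF and 74.0 ± 4.58 CPM in FRC. The profiles nearest to the remaining genes, by the same measure, were Ascc2 (0.0746), Med31 (0.109) and Tmbim6 (0.126) for Erap1, Polb (0.161), Plod2 (0.186) and Sugt1 (0.187) for Nlrc5, Psmc6 (0.193), Snrpa (0.195) and Lmtk2 (0.202) for Tap1, and Ggcx (0.169), Npc1 (0.194) and Triobp (0.200) for Tap2. None of these nearest genes is on the pathway lists.

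The rest of the pathway was read from 7 lists, chosen with earlier results of these data known. Among them, the non-classical heavy chains H2-T23 and H2-M3 and 3 class I-like genes fell after depletion. Of 12 tested further heavy chain genes 1 was higher and 2 lower in depleted than in steady-state RPF (median log2 fold change -0.66, against -0.09 over all tested genes), counts close to the shares of 11.1% higher and 9.96% lower over all tested genes. H2-T23, which encodes the Qa-1 ligand of NKG2A receptors, had 154, 150 and 108 CPM in depleted RPF, against 378, 233 and 409.8 CPM in steady-state RPF. It fell 2.48-fold (log2 fold change -1.31, SE 0.22, edgeR adjusted p = 0.00326), with no overlap. H2-M3, which presents formylated bacterial peptides, averaged 18.7 ± 4.22 CPM in depleted RPF and 46.2 ± 14.4 CPM in steady-state RPF (-1.30, adjusted p = 0.00617 in edgeR). H2-Q10 rose at a very low level, to 1.17 ± 0.811 CPM against 0.125 ± 0.0369 CPM (adjusted p = 0.02 in edgeR), and shares sequence with H2-K1. Of 5 tested class I-like genes 0 were higher and 3 lower (median -1.93). These were Hfe, which tunes iron uptake, at 71.5 ± 16.3 CPM in depleted RPF against 327 ± 17.4 CPM in steady-state RPF, Fcgrt, the neonatal Fc receptor, at 119 ± 6.81 against 255 ± 24.1 CPM, and Mr1, which presents vitamin metabolites, at 14.5 ± 8.52 against 55.4 ± 8.50 CPM (edgeR adjusted p = 0.000138, 0.000337 and 0.0242). The marker sums of macrophages, lymphocytes and endothelium were lower in depleted RPF too, and their part in these falls was not tested.

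Of 9 loading chaperones 2 were higher and 1 lower in depleted than in steady-state RPF (median log2 fold change 0.18), and of 11 genes of peptide generation 3 were higher and 1, Psmb9, lower (median 0.19). Over all tested genes 11.1% were higher and 9.96% lower, so a single lower gene in either list is about that share. Canx, the calnexin that holds new heavy chains, averaged 854 ± 55.2 CPM in depleted RPF and 550.5 ± 63.0 CPM in steady-state RPF, and Pdia3, the disulphide isomerase of the loading complex, 1162 ± 40.3 and 1693 ± 169 CPM (edgeR adjusted p = 0.0229 and 0.0154). Bcap31, an export receptor, was higher by 0.38 on the log2 scale, a call lost with upper quartile scaling (0.29, edgeR adjusted p = 0.0695) and with total count scaling (0.21, 0.154). With total count scaling 0 chaperones were higher and 2 lower, Canx missing the threshold (0.47, edgeR adjusted p = 0.0626). The proteasome activators Psme3 and Psme2 averaged 192 ± 2.66 and 73.8 ± 7.09 CPM in depleted RPF, against 83.9 ± 18.9 and 43.7 ± 6.76 CPM in steady-state RPF, and the aminopeptidase Lap3 128 ± 8.82 against 56.5 ± 9.67 CPM. The Psme2 call was lost with total count scaling (0.59, edgeR adjusted p = 0.0578).

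Several regulators were higher after depletion, 4 NF-kB subunit genes among them. Of 23 regulators 7 were higher and 0 lower in depleted than in steady-state RPF (median log2 fold change 0.25), against 11.1% and 9.96% of all tested genes. Rela, the transactivating subunit of NF-kB, averaged 399 ± 66.0 CPM in depleted RPF and 143 ± 13.03 CPM in steady-state RPF (edgeR adjusted p = 0.000154). Nfkb1 averaged 152 ± 25.3 and 47.9 ± 7.27 CPM, Nfkb2 290.2 ± 26.5 and 78.9 ± 23.5 CPM, Relb 163 ± 15.4 and 57.4 ± 11.1 CPM, and Irf8 522 ± 21.0 and 215 ± 22.8 CPM, in the same order. Irf1, an interferon-induced activator of class I genes, gave no call: it had 191, 338 and 265 CPM in depleted RPF, against 246, 207 and 235 CPM in steady-state RPF (edgeR adjusted p = 0.65), with overlap. Of 8 tested interferon and receptor genes 3 were higher and 1 lower (median 0.38): the receptor chains Ifnar2, Ifngr1 and Ifngr2 were higher and the kinase gene Tyk2 lower. The Ifngr2 call was lost with upper quartile scaling (0.58, edgeR adjusted p = 0.0514) and with total count scaling (0.50, 0.0765). A sum of 4 monocyte markers was higher beside these genes, at 493 to 625 CPM in depleted RPF against 277 to 432 CPM in steady-state RPF. It was mostly Plac8, at 479.9 to 615 against 219.9 to 408 CPM, while Ly6c2, Lyz2 and F13a1 each lay lower in every depleted library than in every steady-state RPF library. The part of monocytes in the regulator and receptor values was not tested. Of 4 tested inhibitory and NKG2D ligand genes 0 were higher and 1, Cd47, lower.

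**Figure D4:**
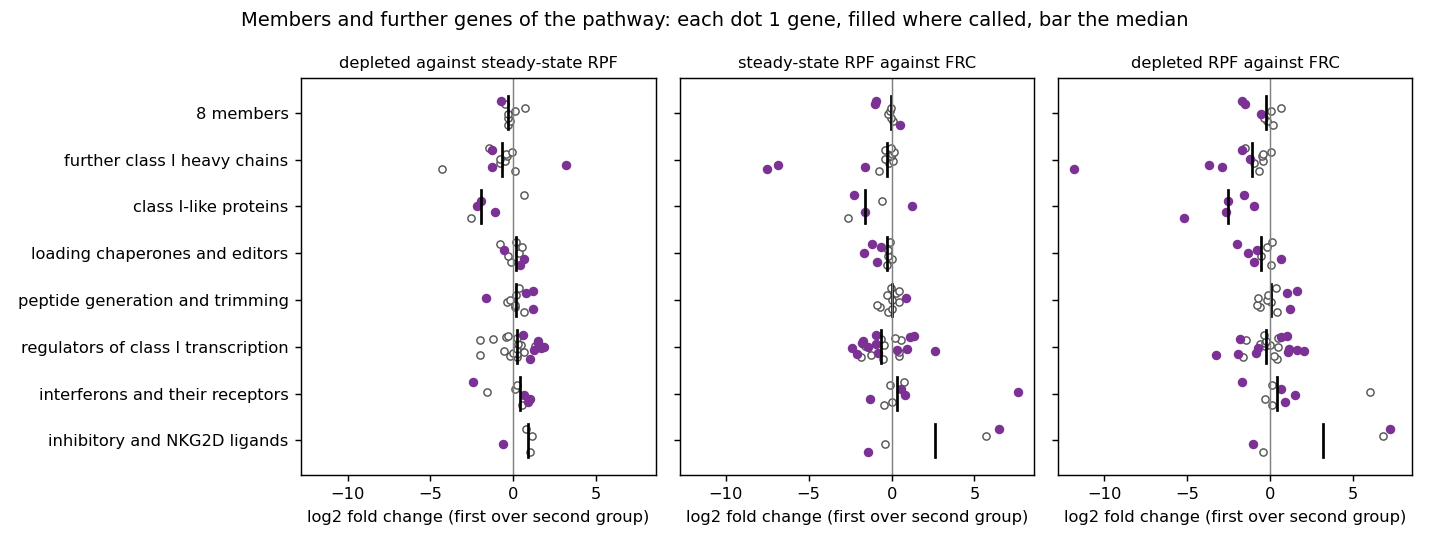
Log2 fold change (x axis, first-named group over second) of the 8 class I genes and of 7 pathway lists in 3 comparisons; each dot is 1 gene, filled where the edgeR adjusted p is under 0.05, and bars are medians. Regulators have 7 filled dots right of 0 and none left of it after depletion, while class I-like genes have 3 left and none right; H2-M2 and H60b, which have a group at 0 counts, are drawn at fitted values that depend on the prior count.

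Against FRC, the called loading chaperones were lower in steady-state RPF, a direction that depended on the scaling. Of 9 loading chaperones 0 were higher and 4 lower in steady-state RPF (median log2 fold change -0.29, against -0.02 over all tested genes). Over all tested genes 11.5% were higher and 14.4% lower, and counts of 1 gene in a list are not set apart from these shares. Tapbpl, the tapasin relative TAPBPR, averaged 30.1 ± 5.06 CPM in steady-state RPF and 69.5 ± 13.7 CPM in FRC, and Calr, the calreticulin of the loading complex, 561 ± 48.4 and 1014 ± 72.3 CPM (edgeR adjusted p = 0.0115 and 0.000617). With total count scaling 3 chaperones were higher and 1 lower, and Tapbpl (-0.63) and Calr (-0.28) were no longer called. Hspa5, an endoplasmic reticulum chaperone, averaged 1426 ± 296 CPM in steady-state RPF and 4614 ± 531 CPM in FRC. Of 12 further heavy chains 0 were higher and 3 lower (median -0.25): H2-M3 averaged 46.2 ± 14.4 CPM in steady-state RPF against 141 ± 7.50 CPM in FRC, H2-Q10 0.125 against 15.1 CPM and H2-M2 0.0597 against 12.0 CPM. Of 5 class I-like genes 1, Hfe, was higher and 2 were lower, and of 11 peptide generation genes 1, Psmb9, was higher and 0 lower (7 higher with total count scaling). Psmb9 averaged 98.7 ± 26.6 CPM in steady-state RPF and 53.4 ± 4.09 CPM in FRC (log2 fold change 0.89, edgeR adjusted p = 0.0454).

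Of the 23 regulators 5 were higher and 8 lower in steady-state RPF than in FRC (median log2 fold change -0.62), and 7 higher and 6 lower with total count scaling. With TMM scaling 11.5% of all tested genes were higher and 14.4% lower. Among the lower ones, Irf1 had 246, 207 and 235 CPM in steady-state RPF against 1156, 645 and 1174 CPM in FRC (log2 fold change -2.11, SE 0.27, edgeR adjusted p = 0.000477). Nfkb1, Rela, Nfkb2 and Relb were lower as well, by -2.36, -1.78, -1.42 and -1.72 on the log2 scale. Of 8 interferon and receptor genes 3 were higher and 1, Ifngr1, lower, and of 4 inhibitory and NKG2D ligand genes Ulbp1 was higher and Cd274, which encodes PD-L1, lower, the last not called with total count scaling (-0.84, edgeR adjusted p = 0.0828).

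In depleted RPF against FRC, the called non-classical heavy chains were all lower, under each scaling. Of 12 further heavy chains 0 were higher and 5 lower in depleted RPF (median log2 fold change -1.08, against -0.06 over all tested genes), and all 5 tested class I-like genes were lower (median -2.50). With total count scaling 4 of the heavy chains were lower, and H2-Q6 was no longer called (-0.80, edgeR adjusted p = 0.0746). Over all tested genes 16.9% were higher and 18.8% lower, and counts of 1 gene in a list are not set apart from these shares. H2-T23 averaged 137 ± 25.2 CPM in depleted RPF and 441 ± 42.4 CPM in FRC (edgeR adjusted p = 0.000479). H2-M2 had 0 counts in every depleted library and 22.2, 5.36 and 8.29 CPM in FRC, at least 465-fold lower in depleted RPF taking 3 counts over the 3 depleted libraries as the floor. Of 9 chaperones 1 was higher and 4 lower (median -0.53), and 3 each way with total count scaling. Of 11 peptide generation genes 3 were higher and 0 lower (median 0.08), of 23 regulators 6 were higher and 5 lower (median -0.21, and 8 and 1 with total count scaling), of 8 interferon and receptor genes 3 were higher and 1 lower, and of 4 ligand genes 1 was higher and 1 lower. Irf1 averaged 265 ± 73.1 CPM in depleted RPF and 992 ± 301 CPM in FRC (edgeR adjusted p = 0.000635). The sum of 8 class II and dendritic cell genes was 57.9 to 99.6 CPM in depleted RPF and 77.1 to 135 CPM in steady-state RPF. In FRC it was 326 to 629 CPM, with Flt3 at 0 in every library and Itgax at most 0.0304 CPM. The part of cells carrying class II in the FRC levels of class I genes was not tested.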

How the data were processed

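PolyA RNA of 9 libraries, each of 2 mice and 12 mice in all, was analysed from the raw read counts per Ensembl gene that the authors deposited, used as they are. Tools named in the submitters' processing notes are HTSeq 0.6.1p1, STAR 2.5.3a, Bowtie2 2.2.8 and cutadapt 1.10, with build mm10; strand setting and annotation release are not given there. The deposited median transcript length per gene, another quantity in bases, was used only for a second per-length level. The 24 other per-sample columns were not used.

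Total counts ran from 25414645 to 43879806 per library. Genes past filterByExpr (15103) were fitted in R 4.3.3 with edgeR 4.0.16 (TMM scaling, 1 term per group, robust quasi-likelihood, all 9 libraries), two-sided, with Benjamini-Hochberg adjustment over all of them. Intervals are 95% intervals of that fit. The model was tested on simulated counts from independent libraries with a common mean profile apart from set changes. That cannot show how shared mice or differing composition of the groups act on the calls. P-values measure the spread between libraries, since FRC and steady-state RPF share mice and which libraries do is not given. Ratios of counts, chosen after values were seen, were compared by exact permutation. Exon lengths are GENCODE M21 on GRCm38, promoters RefSeq GRCm38.p6. Alternatives were RLE, upper quartile and total count scaling (the last, and the list counts under each scaling, added after seeing the data), 2 other filters, DESeq2 1.42.0, limma-voom (limma 3.58.1), no robust prior, the compared groups alone, and leaving out libraries. All 8 genes were named in every comparison, with the called genes of each list (at most 6, by smallest p) and, for each gene, the 3 most similar profiles; not every list gene under this rule is given in the text. The genes and lists were chosen with earlier results of these data known. Plots come from matplotlib 3.10.9 under Python 3.11.15.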

Additional observations from a re-analysis of the deposited data

How the results depend on the processing

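Of the called class I genes, Tapbp kept its call and direction in each of the 3 comparisons, B2m in steady-state RPF against FRC and Tap2 in depleted RPF against FRC in all 16 alternatives each. The number of class I genes called in depleted against steady-state RPF was 1, and became 2 with RLE scaling, upper quartile scaling, the 1 CPM filter or DESeq2, 3 with limma-voom and 4 with total count scaling, an alternative added after seeing the data; leaving out 1 library gave 1 to 2. Directions turned only for log2 fold changes that edgeR did not call with TMM scaling. Of the turned values, edgeR called that of H2-D1 in steady-state RPF against FRC with total count scaling (adjusted p = 0.0104). With total count scaling the values in steady-state RPF against FRC became 0.36 for H2-K1, 0.56 for H2-D1, 0.53 for Tap1 and 0.53 for Nlrc5, those in depleted RPF against FRC 0.0700 for H2-D1 and 0.26 for Erap1, and that in depleted against steady-state RPF -0.0668 for Nlrc5. In steady-state RPF against FRC, upper quartile scaling, which moved the median of all genes by 0.16, gave 0.14 for H2-D1, 0.11 for Tap1 and 0.10 for Nlrc5, the fit of the compared groups alone 0.0481, 0.0183 and 0.00654, and limma-voom 0.0282 for Nlrc5. Without the libraries that lack Y-linked reads, Erap1 was -0.11 in that comparison and Nlrc5 -0.17 in depleted RPF against FRC. Leaving out 1 library at a time gave, in steady-state RPF against FRC, -0.13 to 0.10 for H2-D1, -0.23 to 0.12 for Tap1, -0.28 to 0.47 for Nlrc5 and -0.0938 to 0.24 for Erap1, and in depleted RPF against FRC -0.18 to 0.57 for Nlrc5 and -0.32 to 0.0141 for Erap1. The cause was not tested. No paired analysis was possible because the labels give no replicate numbers and do not say which steady-state RPF and FRC libraries share mice. RPF steady replicate 1 and FRC replicate 1 alone lacked Y-linked reads, which is what a shared pair of mice would give, but nothing matches the other 2 libraries of each group. The 3 libraries a group limit the fit, and the exact ratio tests cannot go below 0.1.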
